A study of Musca domestica with 10 samples.

Results

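In house fly embryos, 98 of 15803 annotated genes had almost no reads at the syncytial blastoderm and first reached a set level in both libraries of a stage at germ band extension. In some of them a single cellular blastoderm or gastrula library was past that level before. They were chosen by their measured levels in CPM, a gene's share of the gene reads of its library, scaled to a fixed library total. Each had less than 1 CPM in both syncytial blastoderm libraries and at least 10 CPM in both germ band extension libraries. Each also had at least 1 cellular blastoderm library and at least 1 gastrula library below 10 CPM. These 98 came from 8343 genes below 1 CPM in both syncytial blastoderm libraries. Under the same floors, 138 other genes were first high at gastrula and 701 at dorsal closure.

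The samples were whole Musca domestica embryos, 100 to a sample, with no treatment or strain given in the labels. There were 5 stages with 2 biological replicates each. In order of development they were the syncytial blastoderm, when nuclei share one cytoplasm, the cellular blastoderm, when cells have formed, the gastrula, when the mesoderm folds inward, then germ band extension and lastly dorsal closure. Only dorsal closure was not used to choose the genes, so the levels at the first 4 stages are a description of the choice. In whole embryos, fewer cells that express a gene and less RNA per cell cannot be told apart.

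At germ band extension the trunk of a fly embryo lengthens and folds round its posterior end. In Drosophila melanogaster, a related fly, neural precursors leave the surface layer and the mesoderm is divided into muscle, fat and visceral precursors around this stage. At dorsal closure the epidermis of both flanks moves over the back, while nerve, muscle, gut and cuticle-forming cells differentiate. The files identify genes by MDOA numbers alone, and 0 of the 15803 identifiers matched the RefSeq gene table of this species. Each gene is therefore called by its identifier, with no function given to it.

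Depth and the replicates bear on what follows. Syncytial blastoderm replicate 1 held 16288442 gene reads and the other 9 libraries 42479342 to 83604709. A count of 3, taken as the limit that a count of 0 allows, was worth 0.184 CPM in that library and 0.0359 to 0.0706 CPM in the others. These limits cover counting error only. The replicate 2 minus replicate 1 differences of all 11286 tested genes correlated between stages at r of 0.321 to 0.608, in all 10 pairs of stages. Results are therefore given without and with the replicate number as a block in the model.

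The genes were close to undetected at the start. At syncytial blastoderm 55 of the 98 had no read in replicate 1 and 17 had none in replicate 2, and 11 had none in either. Their median was 0 CPM in replicate 1 and 0.0706 CPM in replicate 2. At cellular blastoderm the medians were 0.185 and 0.448 CPM, and 70 genes were below 1 CPM in both libraries. So most of them were still low when the cells had formed, though most had some reads. Only 24 genes in replicate 1 and 16 in replicate 2 had 3 reads or fewer there. At syncytial blastoderm 83 genes in the shallower replicate 1 and 54 in replicate 2 had 3 reads or fewer.

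Reads of these genes were common by gastrula. The medians there were 7.46 CPM in replicate 1 and 5.69 CPM in replicate 2, and 92 of the 98 genes had at least 1 CPM in both libraries. Both gastrula libraries were under the 10 CPM limit for 53 genes. For 30 genes replicate 1 alone was past it, and for 15 replicate 2 alone. By the rule, germ band extension was for all 98 the stage at which both libraries first passed the floor. For most of them it was not the stage at which reads first appeared.

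At germ band extension the medians were 18.1 CPM in replicate 1 and 40.9 CPM in replicate 2. Levels ran from 10.1 to 183 CPM in replicate 1 and from 10.3 to 593 CPM in replicate 2. Replicate 2 had 17 of the genes at 100 CPM or more and replicate 1 had 1. The genes took 0.231% of the gene reads of replicate 1 and 0.615% of those of replicate 2. At gastrula their shares were 0.0901% and 0.0666%, and at dorsal closure 0.86% and 0.956%.

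**Figure D1:**
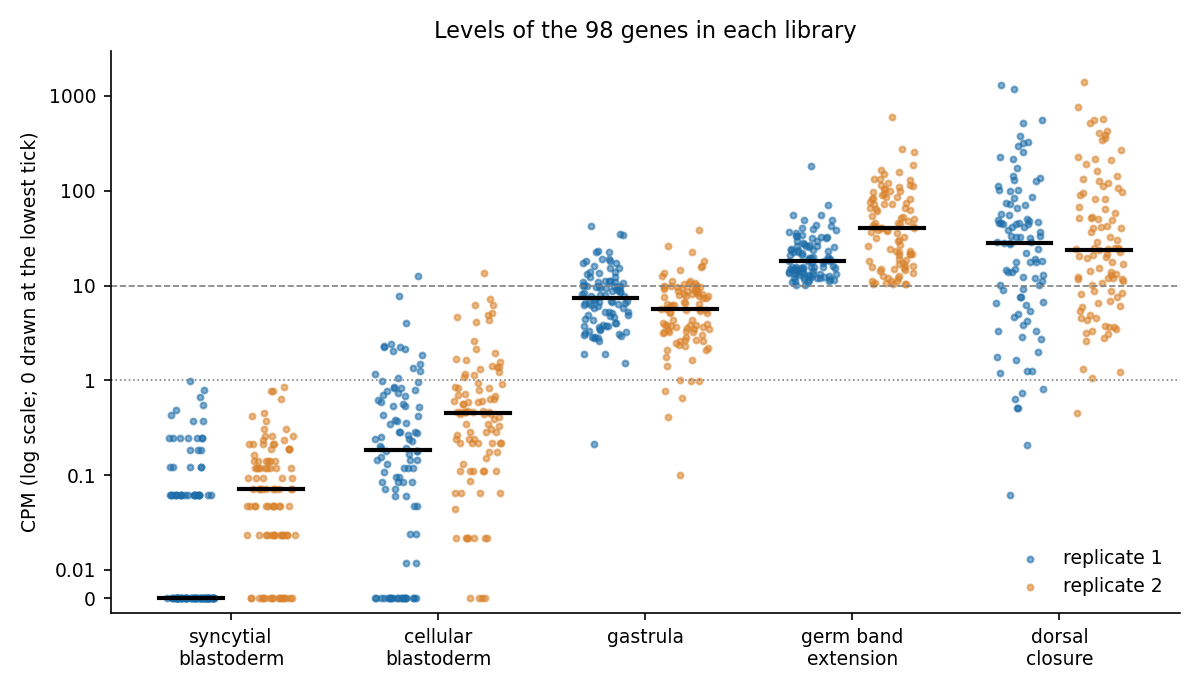
Level of each of the 98 genes in each of the 10 libraries, in CPM on a log axis with counts of 0 drawn at the lowest tick; black bars are medians, the dashed line is 10 CPM and the dotted line 1 CPM. The genes spread widely at dorsal closure, where the medians are 28.3 CPM in replicate 1 and 23.8 CPM in replicate 2.

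The step up from gastrula differed in size between the replicate series. In the libraries labelled replicate 1 the germ band extension level was a median of 2.63 times the gastrula level, and 21 genes were 4-fold or more higher. In those labelled replicate 2 the median ratio was 6.95, and 68 genes were 4-fold or more higher. Both series showed a 4-fold or larger difference for 20 genes. These ratios use values that chose the genes and were not tested.

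The sharpest onset was that of MDOA001403, the only one of the 98 below 1 CPM in both gastrula libraries. It had 0 and 0.118 CPM at syncytial blastoderm, 0 and 0.0219 at cellular blastoderm, 0.212 and 0.101 at gastrula, 12 and 21.5 at germ band extension, and 46.2 and 14.2 CPM at dorsal closure (replicates 1 and 2 each time). Its lower germ band extension library stood 56.8 times above its highest earlier library. The next sharpest by that ratio were MDOA014771 and MDOA006146, at 10.9 and 10.6 times.

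MDOA006146 had 0.246 and 0.235 CPM at syncytial blastoderm, 0.179 and 0.175 at cellular blastoderm, 2.82 and 1.42 at gastrula, and 29.8 and 113 CPM at germ band extension. At dorsal closure it had 70.1 and 411 CPM, so the dorsal closure libraries stood on either side of the higher germ band extension library. Within each series dorsal closure was above germ band extension. The gene was not called (edgeR adjusted p = 0.219 without and 0.1005 with the block).

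At the other end were genes with many reads before germ band extension. Cellular blastoderm libraries at 10 CPM or more were seen for 2 genes, MDOA009417 and MDOA009689, which are named after their values were seen. MDOA009417 kept to a narrow range of levels from cellular blastoderm on, with 12.7 and 4.63 CPM there, 9.85 and 16.2 at gastrula, 20.1 and 14.6 at germ band extension, and 13.1 and 12.2 CPM at dorsal closure. MDOA009689 was higher in replicate 2 at every stage, with 0.789 and 13.4 CPM at cellular blastoderm, 8.71 and 38.7 at gastrula, 23 and 96.8 at germ band extension, and 0.506 and 8.19 CPM at dorsal closure. Germ band extension was below gastrula in 1 series for 3 genes (2 in replicate 1 and 1 in replicate 2).

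The floor of 10 CPM cut through a continuous range of levels. Just inside it, MDOA001046 had 10.1 and 40.7 CPM at germ band extension and MDOA002554 had 10.2 and 36.3 CPM. Just outside it, MDOA010660 had 9.88 and 67.2 CPM and MDOA015107 had 9.86 and 118 CPM, with all other conditions met. In these 4 genes replicate 1 was the lower germ band extension library. Taken alone, replicate 1 would have chosen 87 genes by the same rule and replicate 2 would have chosen 279, with 53 genes in common.

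MDOA001738 was the most abundant of the 98 at germ band extension, with 183 and 593 CPM. The earlier libraries of this gene held 0 and 0.447 CPM at syncytial blastoderm, 0 and 0.459 CPM at cellular blastoderm, then 17.4 and 7.81 CPM at gastrula. Its dorsal closure libraries had 1188 and 1408 CPM. Both dorsal closure libraries were above both germ band extension libraries. The fitted log2 difference, dorsal closure minus germ band extension, was 1.63 ± 1.4 (SE, edgeR quasi-likelihood test, adjusted p = 0.444) and did not pass the threshold of 0.05 without or with the block (adjusted p = 0.14).

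The next most abundant were MDOA013138, MDOA000231 and MDOA006499. MDOA013138 had 3.2 and 10.2 CPM at gastrula, 27 and 278 at germ band extension, and 218 and 556 CPM at dorsal closure, each time more in replicate 2. MDOA006499 had 10.8 and 5.72 CPM at gastrula, 43.9 and 186 at germ band extension, and 33.1 and 112 CPM at dorsal closure. Within each series MDOA013138 was higher and MDOA006499 lower at dorsal closure than at germ band extension, but in both genes the libraries of the stages overlapped. Their adjusted p was 0.506 and 0.618 without the block, and 0.0616 and 0.427 with it, in edgeR. For MDOA013138 the edgeR adjusted p with the block was 0.0475 with DESeq2's size factors, 0.0472 with total counts and 0.00674 without germ band extension replicate 2.

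What happened to these genes at dorsal closure, the stage that did not enter the choice, divided them. The median level of the 98 was 28.3 and 23.8 CPM at dorsal closure, against 18.1 and 40.9 CPM at germ band extension. Behind these medians, levels ran from 0.0617 to 1318 CPM in dorsal closure replicate 1 and from 0.45 to 1408 CPM in replicate 2. At 10 CPM or more in both dorsal closure libraries were 64 genes, 22 were below it in both, and 12 were past it in 1 library. At 100 CPM or more in both were 14 genes, and 7 genes were below 1 CPM in at least 1 dorsal closure library.

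Both dorsal closure libraries lay above both germ band extension libraries for 28 of the 98 genes (28.6%), where the same held for 32.7% of the 11286 tested genes. Both lay below for 30 genes (30.6%), against 25.8% of all tested genes. For the remaining 40 the stages overlapped. The shares of the 98 are near those of all genes, so neither direction is a result about them as a group. The floor at germ band extension also favours falls among the genes chosen. Without germ band extension replicate 2, 46 genes had both dorsal closure libraries above the remaining library, as had 40.3% of all tested genes.

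The 28 genes with higher dorsal closure libraries had medians of 6.57 and 3.76 CPM at gastrula, 15.1 and 41.3 at germ band extension, and 108 and 74.8 CPM at dorsal closure. Dorsal closure means were 1.3 to 9.89 times the germ band extension means, with a median of 3.19. The 30 genes with lower dorsal closure libraries had medians of 9.12 and 5.44 CPM at gastrula, 20.1 and 32.1 at germ band extension, and 3.06 and 4.52 CPM at dorsal closure. In these, germ band extension means were 1.37 to 64.2 times the dorsal closure means, with a median of 6.66. At germ band extension itself both sets stood at similar levels, and the later stage, which defines the sets, separates them.

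**Figure D2:**
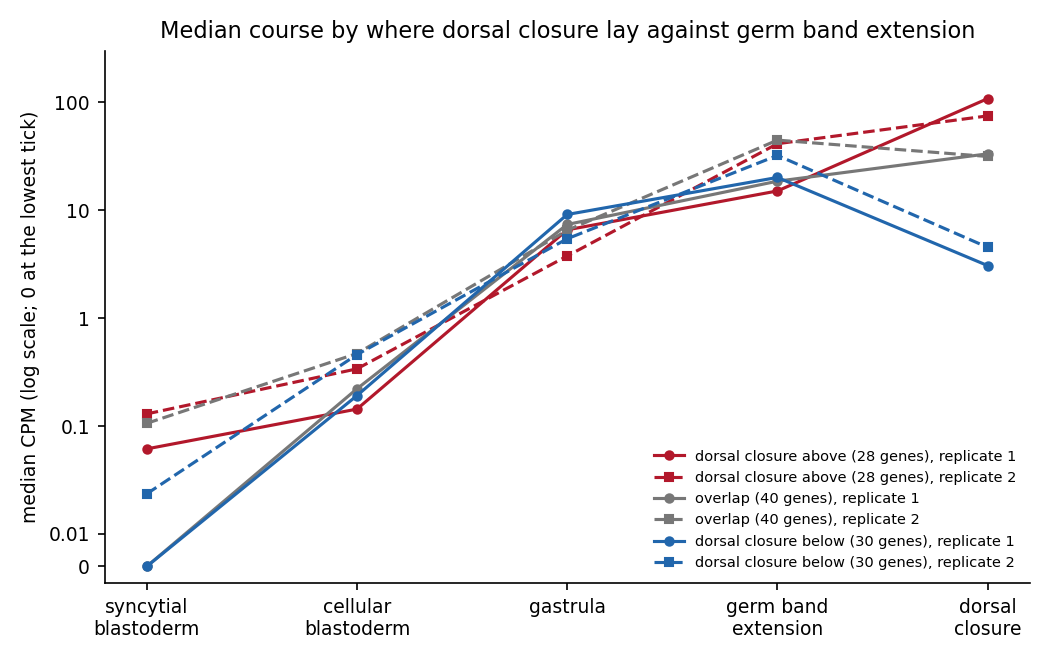
Median CPM (log axis, 0 at the lowest tick) over the 5 stages for the 28 genes with both dorsal closure libraries above both germ band extension libraries, the 40 with overlapping libraries and the 30 with both below, for each replicate. The sets lie close together up to germ band extension and separate at dorsal closure, a separation that defines them.

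Few single genes passed the test of dorsal closure against germ band extension. In edgeR's quasi-likelihood test with all 10 libraries, 0 of the 98 were called higher at dorsal closure at a Benjamini-Hochberg adjusted p under 0.05, where 9.6% of all 11286 tested genes were. Called lower were 6 genes (6.12%), against 7.55% of all tested genes. With the replicate number as a block, 9 of the 98 were called higher (9.18%, against 20.1% of all tested genes) and 19 lower (19.4%, against 20.1%). The 6 called without the block were among the 19. The germ band extension levels that chose the genes enter these differences. Both had to reach 10 CPM, while no level was asked for at dorsal closure, so the choice favours falls.

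All 98 passed the filter on low counts, each through the stage that chose it. The median fitted log2 difference over the 98 was 0.03, against 0.01 over all tested genes, with 49 genes above 0 and 49 below. These values are for TMM scaling, and the place of 0 moves with the scaling. The medians were 0.405 and 0.388 with DESeq2's size factors, and 0.214 and 0.194 with upper-quartile scaling. At an unadjusted p under 0.05, without the block, stood 5 genes on the higher side and 16 on the lower. The share of all tested genes at that level was not counted, so no direction is read from these counts. DESeq2 called 8 higher and 13 lower, against 20.6% and 10.9% of the 10848 genes to which it gave an adjusted p. With limma-voom 9 were higher and 16 lower, against 19.7% and 9.98% of all tested genes. The 19 genes called lower with the block had log2 differences from -6.05 to -2.1 (median -3.62), and the 9 called higher from 1.66 to 3.55 (median 2.59).

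Single libraries moved these counts. The share of all genes tested in the same edgeR fit stands in brackets after each count. Without the block, 0 of the 98 were called lower without germ band extension replicate 1 (1.17%) or dorsal closure replicate 1 (0.787%). Called lower was 1 gene without germ band extension replicate 2 (4.94%) or gastrula replicate 2 (3.56%), and 2 genes without dorsal closure replicate 2 (3.95%) or gastrula replicate 1 (4.97%). Called higher were 6 genes without germ band extension replicate 2 (6.94%), and 1 gene without cellular blastoderm replicate 1 (8.35%) or replicate 2 (8.23%).

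With the block, the genes called higher numbered 2 without germ band extension replicate 1 (9.96%), 19 without its replicate 2 (17.7%), 3 without dorsal closure replicate 1 (9.23%) and 13 without its replicate 2 (19.8%). Those called lower numbered 13 without germ band extension replicate 1 (7.09%), 10 without its replicate 2 (13%), 12 without dorsal closure replicate 1 (12.3%) and 15 without its replicate 2 (14.2%).

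**Figure D3:**
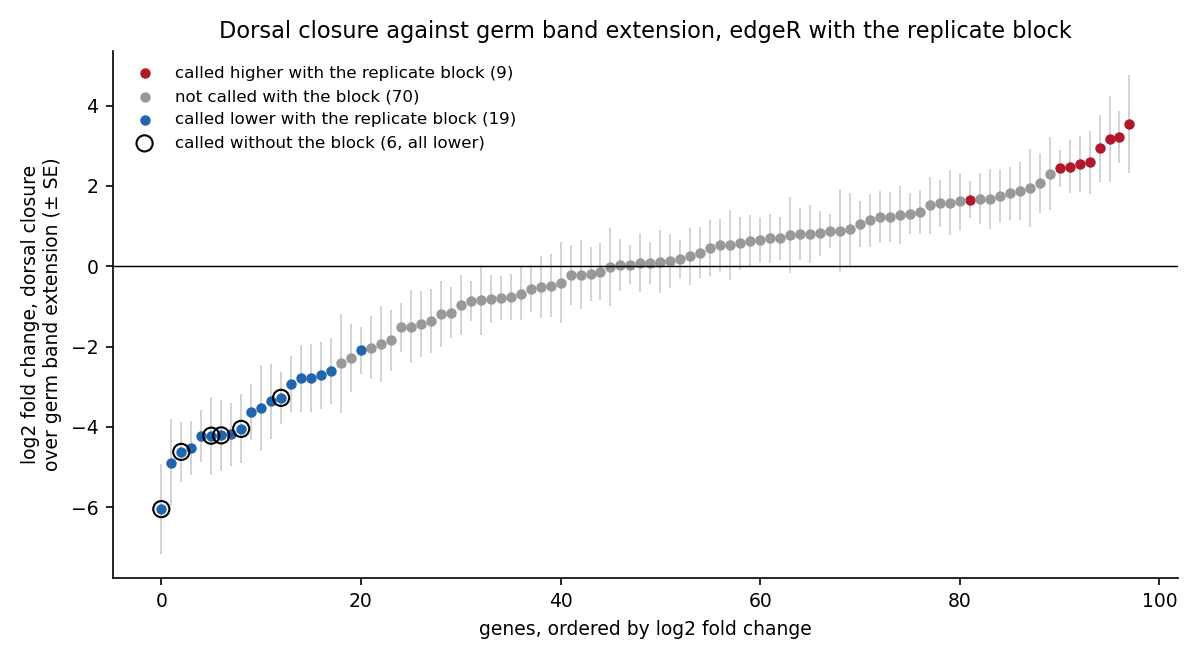
Log2 fold change of dorsal closure over germ band extension with its standard error for each of the 98 genes, in order, from edgeR with the replicate block. Red points are the 9 genes called higher, blue the 19 called lower, and rings mark the 6 that were also called without the block, all of them lower.

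The largest fall was that of MDOA009873, the only one of the 98 below 1 CPM in both dorsal closure libraries. It had 0.0617 and 0.45 CPM at dorsal closure, against 20.1 and 12.7 CPM at germ band extension. Before that it had 0.0614 and 0.0471 CPM at syncytial blastoderm, 2.26 and 1.55 at cellular blastoderm, and 17.4 and 8.17 at gastrula. Its expression was thus a pulse that reached the gastrula and germ band extension and was nearly gone at dorsal closure.

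The log2 difference of MDOA009873, dorsal closure minus germ band extension, was -5.99 ± 1.19 (SE, edgeR adjusted p = 0.0149). With the block the adjusted p was 0.00323 in edgeR. It fell in both series and under every scaling and filter tried in edgeR, in DESeq2 and in limma-voom. The edgeR adjusted p was 0.0639 without germ band extension replicate 1, 0.0635 without dorsal closure replicate 1 and 0.0728 with only the libraries of the 2 stages. Without dorsal closure replicate 2 the log2 difference was -7.97.

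MDOA005164 had 1.63 and 1.22 CPM at dorsal closure, against 13.6 and 52.6 CPM at germ band extension. It had been at 3.07 and 3.59 CPM at gastrula and at or under 0.0706 CPM before. Its log2 difference was -4.67 ± 1.33 (SE, edgeR adjusted p = 0.0441, 0.00895 with the block). Its dorsal closure libraries were close together, and both stood below the gastrula ones. The edgeR adjusted p was 0.218 without germ band extension replicate 2, with a log2 difference of -2.89, and 0.148 and 0.136 without dorsal closure replicates 1 and 2. It was 0.0638 and 0.0728 without gastrula replicates 1 and 2, 0.0534 and 0.0538 without syncytial blastoderm replicates 1 and 2, and 0.0666 without germ band extension replicate 1.

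MDOA010408 had 0.641 and 4.37 CPM at dorsal closure, against 25.9 and 74.3 CPM at germ band extension. Its earlier course was stepwise, with 1.06 and 4.17 CPM at cellular blastoderm and 9.53 and 10.7 at gastrula. The log2 difference was -4.38 ± 1.2 (SE, edgeR adjusted p = 0.0394, 0.00178 with the block). In edgeR without the block the adjusted p was 0.173 without germ band extension replicate 2, with a log2 difference of -2.88, and 0.0732 without germ band extension replicate 1. It was 0.129 without dorsal closure replicate 1, 0.0567 and 0.071 without gastrula replicates 1 and 2, and 0.0618 and 0.0626 without syncytial blastoderm replicates 1 and 2. Without dorsal closure replicate 2 the log2 difference of MDOA010408 was -6.38. MDOA005164 and MDOA010408 also missed the threshold in edgeR with DESeq2's size factors, at adjusted p of 0.0535 and 0.0556, and with only the 2 stages, at 0.0676 and 0.112. MDOA005164 missed it with a stricter filter as well (edgeR adjusted p = 0.0519), and with the block when germ band extension replicate 2 was left out (edgeR adjusted p = 0.0704).

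No member of the 98 was called higher at dorsal closure without the block, so the largest differences are given whether called or not. MDOA014771 had 1318 and 572 CPM at dorsal closure, against 70.1 and 156 CPM at germ band extension. At gastrula it had 6.41 and 1.64 CPM, and earlier at most 0.188 CPM. The groups did not overlap, and the log2 difference was 2.93 ± 0.97 (SE, edgeR adjusted p = 0.0671 without and 0.0221 with the block). With the block the adjusted p was 0.165 without germ band extension replicate 1 and 0.104 without dorsal closure replicate 1.

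MDOA011376 had 517 and 216 CPM at dorsal closure, against 23.6 and 50.5 CPM at germ band extension. It had 12.4 and 9.78 CPM at gastrula. Its log2 difference was 3.18 ± 1.48 (SE, edgeR adjusted p = 0.16), or 3.55 with the block (edgeR adjusted p = 0.0444). Without the block, its adjusted p was 0.0278 and 0.0286 without cellular blastoderm replicates 1 and 2. With the block it was 0.287 and 0.141 without germ band extension replicates 1 and 2, and 0.339 without dorsal closure replicate 1, with a log2 difference of 1.79.

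MDOA000966 had 259 and 190 CPM at dorsal closure, against 11 and 47.9 CPM at germ band extension. It had 4.77 and 1.76 CPM at gastrula. Its log2 difference was 2.79 ± 1.32 (SE, edgeR adjusted p = 0.164), or 3.17 with the block (edgeR adjusted p = 0.0406). With the block the adjusted p was 0.29 and 0.0575 without germ band extension replicates 1 and 2 and 0.185 without dorsal closure replicate 1. MDOA000231, among the most abundant at germ band extension, had 564 and 760 CPM at dorsal closure, against 40.3 and 255 CPM at germ band extension. Its log2 difference was 2.04 ± 1.09 (SE, edgeR adjusted p = 0.217), or 2.54 with the block (edgeR adjusted p = 0.0188, and 0.123 and 0.0935 without replicate 1 of germ band extension and of dorsal closure).

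Without the block, limma-voom called all 4 of these genes higher (adjusted p of 0.00995 to 0.0456) and DESeq2 called MDOA014771 (adjusted p = 0.00445). In all 4 genes the dorsal closure libraries stood above the germ band extension libraries, and in all 4 germ band extension replicate 2 was the higher of the pair.

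**Figure D4:**
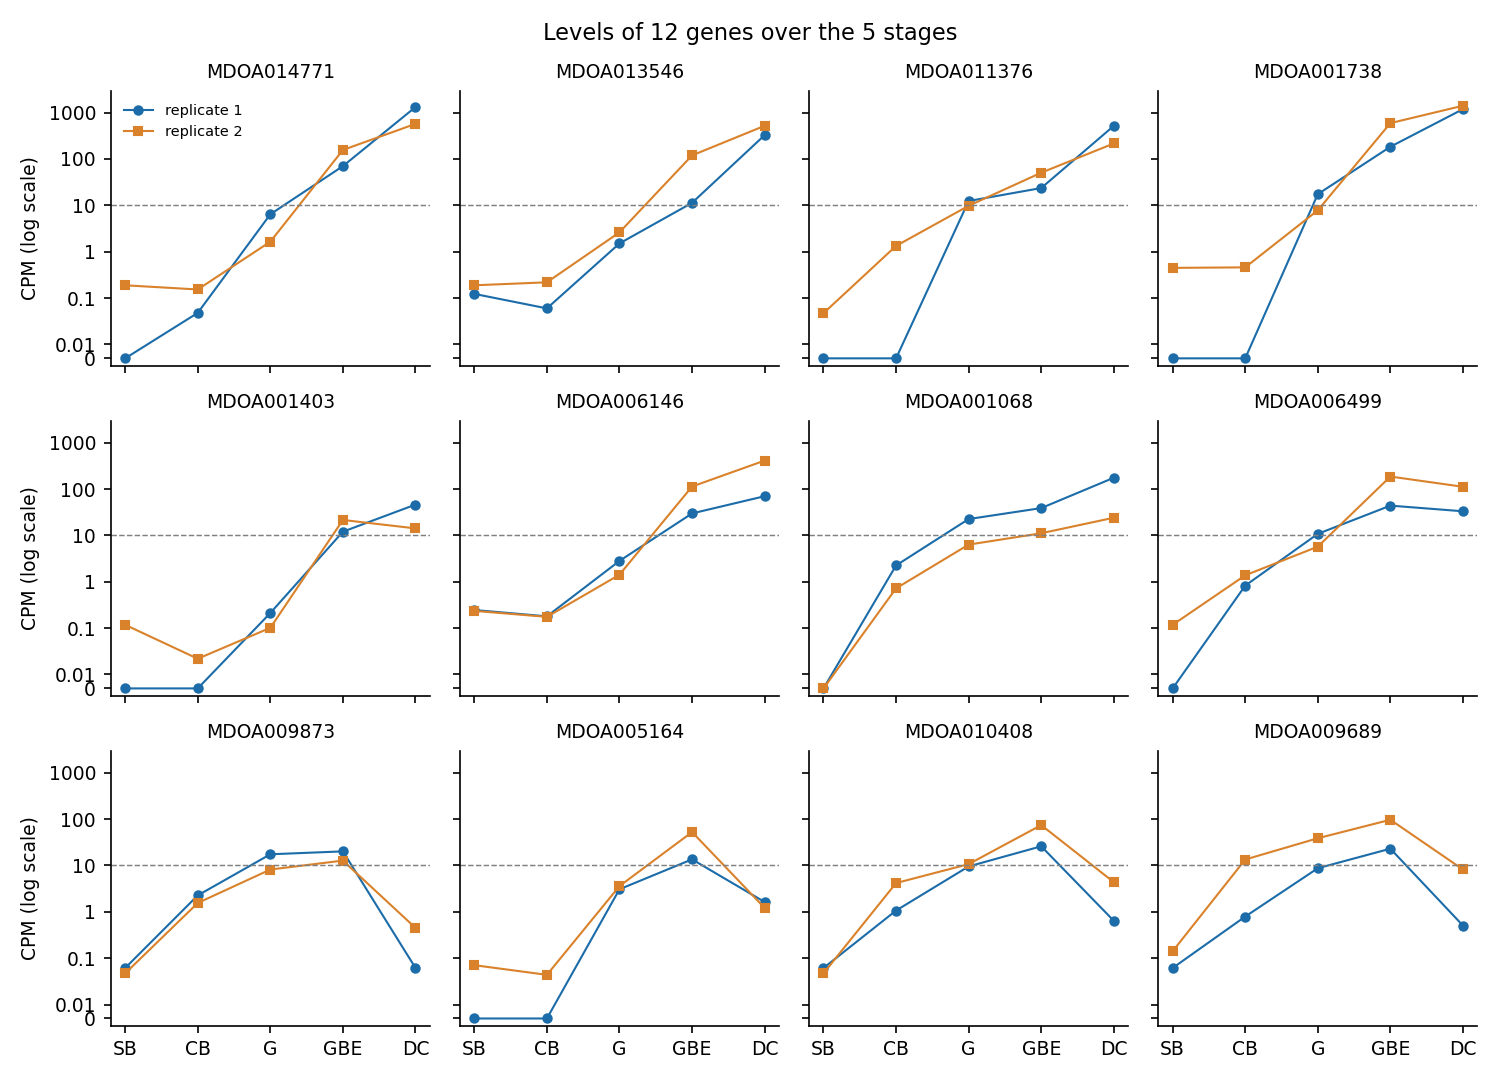
Levels of 12 of the genes over the 5 stages (SB syncytial blastoderm, CB cellular blastoderm, G gastrula, GBE germ band extension, DC dorsal closure) in replicate 1 and replicate 2, in CPM on a log axis with 0 at the lowest tick and 10 CPM dashed. MDOA014771, MDOA013546, MDOA011376 and MDOA001738 are higher at dorsal closure than at germ band extension in both replicates, and MDOA009873, MDOA005164, MDOA010408 and MDOA009689 are lower.

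The 2 germ band extension libraries differed for many of these genes. Replicate 2 was above replicate 1 for 71 of the 98, against 40.2% of all tested genes, with a median ratio of 2. The ratio of replicate 2 to replicate 1 ran from 0.287 to 10.6. It was 4 or more for 23 genes, between 1 and 4 for 48, and at or below 1 for 27. Both libraries entered the choice, so these numbers describe the genes chosen.

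The widest ratios in favour of replicate 2 were those of MDOA004797 and MDOA013546, both 10.6. MDOA004797 had 4.44 and 2.86 CPM at gastrula, 15.7 and 166 at germ band extension, and 376 and 342 CPM at dorsal closure. MDOA013546 had 1.51 and 2.62 CPM at gastrula, 11.3 and 120 at germ band extension, and 327 and 520 CPM at dorsal closure. In both genes germ band extension replicate 1 was nearer to gastrula on a log scale and replicate 2 nearer to dorsal closure. MDOA013546 had a log2 difference of 2.56 ± 1.06 between dorsal closure and germ band extension (SE, edgeR adjusted p = 0.12), or 3.22 with the block (edgeR adjusted p = 0.00539). Without germ band extension replicate 2 that difference was 5.64 without the block (edgeR adjusted p = 0.0158). For MDOA004797 the edgeR adjusted p was 0.246 without and 0.0714 with the block, and it was 0.0234 without and 0.00125 with the block when germ band extension replicate 2 was left out.

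The opposite order was most marked in MDOA001068 and MDOA004417. MDOA001068 had 22.5 and 6.33 CPM at gastrula, 38.8 and 11.1 at germ band extension, and 175 and 24.1 CPM at dorsal closure, so replicate 1 was higher at each of these stages. Within each series dorsal closure was above germ band extension, although the groups overlapped. Its log2 difference was 1.96 ± 1.07 (SE, edgeR adjusted p = 0.227) without the block and 1.66 ± 0.45 with it (edgeR adjusted p = 0.021). With the block the adjusted p was 0.0973 without germ band extension replicate 1 and 0.26 without dorsal closure replicate 1, with a log2 difference of 1.01. MDOA004417 had 34.8 and 8.78 CPM at gastrula, 33.5 and 12 at germ band extension, and 32.8 and 10.8 CPM at dorsal closure, again with replicate 1 the higher each time and no step between the stages.

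Genes with a larger ratio of replicate 2 to replicate 1 at one stage tended to have a larger one at the next. Which replicate was the higher did not always carry over. Replicate 2 was the higher gastrula library for 26 of the 98 genes. It was the higher germ band extension library for 71 and the higher dorsal closure library for 56. Across the 98 genes, the log2 ratio of replicate 2 to replicate 1 at germ band extension correlated with that at gastrula (Pearson r = 0.603, Spearman rho = 0.586) and with that at dorsal closure (r = 0.54, rho = 0.546). These are descriptions across genes, which are not independent replicates and share the same libraries. Over all 11286 tested genes the corresponding r was 0.608 and 0.571 for the replicate differences in scaled log2 CPM. The 98 genes thus stood near the tested genes as a whole in these correlations.

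Of the 23 genes with replicate 2 at least 4-fold higher at germ band extension, 15 also had replicate 2 higher at gastrula and 20 at dorsal closure. Their medians were 4.93 and 7.59 CPM at gastrula, 15.7 and 110 at germ band extension, and 50.6 and 112 CPM at dorsal closure. Of the 48 with replicate 2 higher by less than 4-fold at germ band extension, 9 had replicate 2 higher at gastrula and 28 at dorsal closure. Of the 27 with replicate 2 at or below replicate 1, 2 had replicate 2 higher at gastrula and 8 at dorsal closure. Their medians were 13.2 and 5.72 CPM at gastrula, 20.1 and 13.6 at germ band extension, and 17.6 and 10 CPM at dorsal closure. The germ band extension ratio defines all these sets, so the steps from gastrula to germ band extension within them are largely set by the choice.

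**Figure D5:**
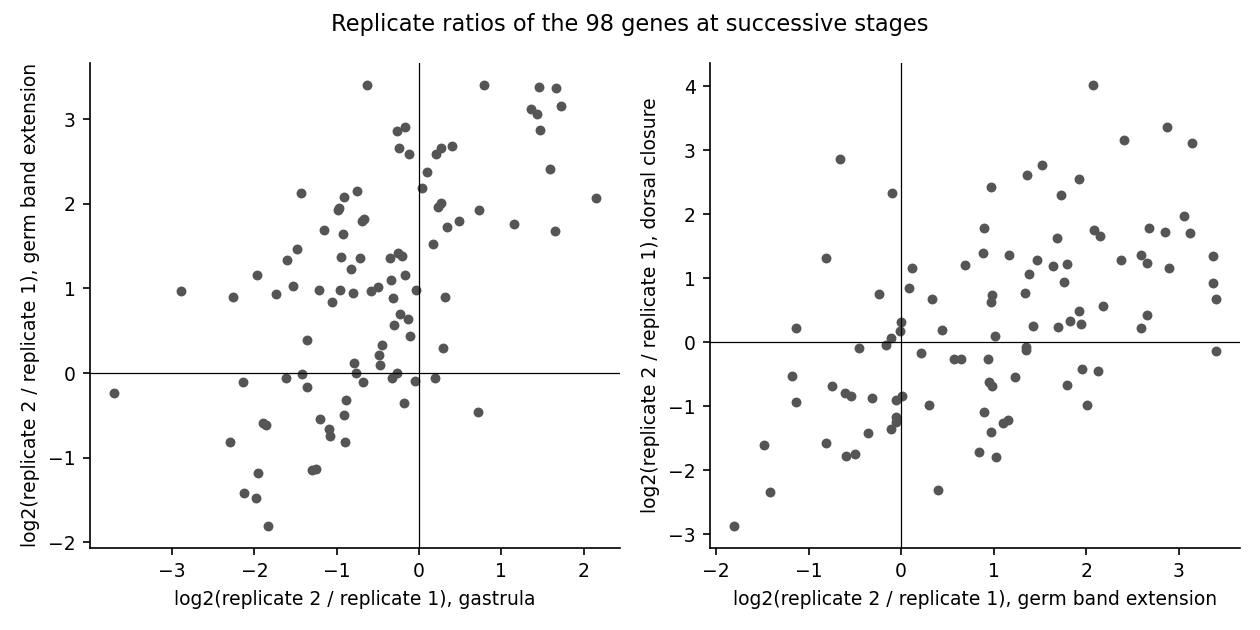
Log2 ratio of replicate 2 to replicate 1 for each of the 98 genes, germ band extension against gastrula on the left and dorsal closure against germ band extension on the right. Points run from lower left to upper right in both panels (Pearson r of 0.603 and 0.54).

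The step to dorsal closure differed in size between the series. Its denominators are the germ band extension levels that chose the genes, which favours falls. In the libraries labelled replicate 1, the dorsal closure level was a median of 1.35 times the germ band extension level, and 25 genes were 4-fold or more higher. In those labelled replicate 2 the median ratio was 0.828 and 2 genes were 4-fold or more higher. Those 2 genes, MDOA011376 and MDOA013546, were past 4-fold in both series. Falls of that size were more even between the series. In each series 21 genes were 4-fold or more lower at dorsal closure than at germ band extension, and 17 genes were so in both. These 4-fold counts were not made over all tested genes, so whether they are particular to the 98 was not tested. Dorsal closure was higher in both series for 40 genes and lower in both for 41, while 14 were higher in replicate 1 alone and 3 in replicate 2 alone. Of all tested genes, 43.3% were higher in both series and 41.4% lower in both, so the 40 and 41 of the 98 are near the background. Higher in replicate 1 alone were 7.95% of all tested genes, and in replicate 2 alone 6.02%.

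The dorsal closure libraries themselves were within 2-fold of each other for 48 of the 98 genes. Replicate 2 was at least 4-fold higher for 11 genes and replicate 1 for 3. The extremes were MDOA009689, with replicate 2 at 16.2 times replicate 1, and MDOA001068, with replicate 1 at 7.28 times replicate 2.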

How the data were processed

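Messenger RNA of whole embryos was sequenced at 5 stages with 2 replicates. Per the labels' protocols, RNA was extracted with Tri-reagent, treated with DNase and sequenced as paired reads of 100 bp on a HiSeq2000. The deposited values are raw counts, whole numbers of reads for each gene, made with STAR and HTSeq per the submitters' processing notes. The sources used here do not give versions, genome build, annotation or strand setting, so overlapping, antisense and near-identical genes may share or lose reads. The 5 closing rows without a gene were left out of library sizes and tests. They held the reads assigned to no gene (10.5% to 25% of a library), those aligned to several places (5.31% to 10.7%) and those ambiguous between genes (0.353% to 0.661%).

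CPM was each count relative to the total of gene reads, without further scaling, as the rule for the genes asks. The tests used R 4.3.3 and edgeR 4.0.16 on the counts. filterByExpr by stage left 11286 genes, libraries were scaled by TMM, and a robust quasi-likelihood model with 1 term for each stage used all 10 libraries (5 residual degrees of freedom, 4 with the block). A gene was called where its p, adjusted over all tested genes by Benjamini-Hochberg, was under 0.05. A standard error is the log2 change without prior count over the square root of edgeR's F, and other log2 values carry edgeR's prior count. limma 3.58.1 (voom) and DESeq2 1.42.0 were alternatives. Library pairs of the same stage differed by far more than counting noise (chi-square per degree of freedom of 467 or more). Where 1 library is left in a stage, it is assumed to vary like the others.

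The numbers 1 and 2 pair the libraries by the data, since replicate differences correlated at over 0.1 in every pair of stages. The labels name no shared batch. The genes, the gene lists and the tests were chosen with earlier results of these data known. Named genes were the 4 most abundant at germ band extension, the 3 largest rises and falls at dorsal closure among called genes (among all where fewer than 3 were called), and the 2 widest replicate ratios each way. The rule also took genes below 1 CPM in both dorsal closure libraries, the 3 sharpest onsets, and the 2 genes nearest the floor on each side. Gene lists for developmental regulators could not be used, as no identifier matched a name. On simulated data for this comparison, with 11286 genes, the edgeR steps recovered 92% and 84% of 50 genes each raised or lowered by 6 on the log2 scale, and 36% and 22% of those changed by 3. They called 8 unchanged genes. The simulated libraries had no shared replicate differences and, for unchanged genes, the same mean share of reads at all stages. Only genes above a set mean level were changed. The fit with the block was not simulated, so these rates do not describe it.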

Additional observations from a re-analysis of the deposited data

How the results depend on the processing

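With 2 libraries a stage, the test without the block found few of the smaller changes in data simulated without shared replicate differences. The shallowest library limits levels below 0.184 CPM. All counts that follow are of genes called at dorsal closure against germ band extension, higher and then lower, and the causes of their changes were not tested.

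The replicate block moved the count among the 98 genes to 9 and 19, against 0 and 6 without it, and over all tested genes to 2274 and 2265, against 1084 and 852. Among the 98, DESeq2 called 8 and 13, limma-voom 9 and 16, edgeR with only the 2 stages 0 and 0, and edgeR with DESeq2 size factors 0 and 3. Over all genes, DESeq2 called 2236 and 1187, limma-voom 2218 and 1126, and edgeR with only the 2 stages 421 and 22. EdgeR with DESeq2 size factors called 1347 and 573 over all genes. Leaving out 1 library at a time, without the block, gave 0 to 6 and 0 to 6 among the 98, and 182 to 1006 and 91 to 704 over all genes.

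Other fits with the replicate block were chosen after seeing the data. With DESeq2 size factors the block gave 17 and 18 among the 98 and 2742 and 1576 over all genes, and with total counts 11 and 19, and 2331 and 2161. When germ band extension replicate 1 was left out, the block gave 2 and 13 among the 98, with 1199 and 853 over all genes, and without its replicate 2 it gave 19 and 10, with 2120 and 1563 over all genes. Without dorsal closure replicate 1 the block gave 3 and 12, with 1068 and 1424 over all genes, and without its replicate 2 it gave 13 and 15, with 2358 and 1695.

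The choice of genes depended on the libraries too. With the floor and the limit both at 20 CPM, 65 genes were chosen, 33 of them among the 98. With both cellular blastoderm and both gastrula libraries below the limit 53 of the 98 were left. Replicate 2 alone chose 279 genes, 83 of them among the 98, and leaving out 1 library gave 68 to 290. Leaving out 1 germ band extension or dorsal closure library put 31 to 46 of the 98 above at dorsal closure, against 28, and 39.5% to 44.6% of all tested genes. Of the 53 genes with both earlier pairs below the limit, 13 were lower in both dorsal closure libraries. This stands beside 30 of the 98 and 25.8% of all tested genes. The mean of the 2 gastrula library medians was 4.12 CPM for the 53, against 6.57 for the 98. With DESeq2 size factors the mean of the 2 dorsal closure library medians was 35.35 CPM, against 26.

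Log2 differences that changed sign were those of 5 named genes that were not called. Leaving out 1 library without the block gave -0.46 to 1.95 for MDOA001046, -0.27 to 1.62 for MDOA001403, -1.01 to 0.76 for MDOA004417, -0.15 to 3.51 for MDOA006146 and -1.92 to 1.19 for MDOA006499. MDOA001046 (0.14 with all libraries) was at -0.46 and -0.34 without replicate 1 of germ band extension and of dorsal closure, and with the block at -0.32 and -0.70. MDOA001403 (0.72) was at -0.27 without dorsal closure replicate 1, and with the block at -0.60. MDOA006146 (1.68) was at -0.15 without dorsal closure replicate 2. MDOA006499 (-0.75) was at 1.19 without germ band extension replicate 2, and with the block at 0.55. MDOA004417 (-0.09) was at 0.30 with DESeq2 size factors and in DESeq2, 0.10 with upper-quartile scaling, 0.22 with a stricter filter and 0.24 with the block and DESeq2 size factors. It was at 0.11 without gastrula replicate 2, at 0.76 without germ band extension replicate 1 and at 0.62 without dorsal closure replicate 2. With the block its values were 0.0021 and 0.15 when germ band extension replicate 1 or 2 was left out, and 0.14 when dorsal closure replicate 2 was.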
